A study of Mus musculus with 14 samples.

Results

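The genes described here carry carbon from glucose to the tricarboxylic acid (TCA) cycle in microglia, the resident macrophages of the brain. They were taken as a named list of 56 genes of glucose transport, glycolysis, lactate handling, the pentose phosphate pathway, pyruvate entry into mitochondria and the TCA cycle. The list was drawn up by pathway membership, with earlier results of these data known. It matched 57 gene IDs of the 41739 in the table, because 2 IDs carry the symbol Aldoa. The ID with the higher level (ENSMUSG00000030695) is called Aldoa and the other (ENSMUSG00000114515) Aldoa_2. All 57 IDs reached a level of at least 1 TPM (TPM counts reads per transcript length, scaled to a total of 1000000 per library) in at least 3 libraries and were tested with 18724 genes in all.

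RNA came from brain cells purified with magnetic beads from mice aged 8 weeks and treated with tamoxifen. Mice labelled Rheb F/F, with floxed alleles of Rheb and no Cre, are called WT, and mice labelled Rheb F/F; Tmem119-cre ER are called KO. Rheb is the small GTPase that switches on the growth kinase complex mTORC1, and the Cre is a tamoxifen-dependent recombinase expressed from Tmem119, a microglial gene. Each genotype received PBS or the bacterial endotoxin LPS (1.0 mg/kg) by daily intraperitoneal injection for 4 days, giving 3 libraries of each genotype with PBS and 4 of each with LPS. Libraries are named by genotype, treatment and the number in their labels. Cre was present in the KO mice and absent from the WT mice, and effects of Cre, of the Tmem119 allele and of Rheb loss cannot be told apart.

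Glycolysis splits glucose into pyruvate in the cytosol, and its pace is set largely at the hexokinase and phosphofructokinase steps. Pyruvate is either reduced to lactate and exported, or carried into mitochondria, where the pyruvate dehydrogenase complex turns it into acetyl-CoA for the TCA cycle. In macrophages, LPS is known to raise glycolysis and lactate output and to interrupt the TCA cycle, and mTORC1 is known to raise glycolytic genes through the transcription factor HIF-1, whose alpha subunit is Hif1a. All values below are mRNA levels, and no flux or protein was measured.

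Promoter sequences are shown for the 6 genes on which the results turn: Pfkfb3, Hif1a and Ldha, which rose with LPS in both genotypes, and Ldhb, Mpc1 and Idh2, which fell with it and also stood apart between genotypes. Each line gives the 250 bases before the RefSeq transcription start, 5′ to 3′ on the gene's strand, from GRCm38.p6. The capitals mark ACGTG or GCGTG on either strand, the core that HIF-1 is known to bind. Where matches overlap, as in CACGTG, they were merged into 1 stretch. The windows are chr2:11553930-11554179 (minus strand) for Pfkfb3, chr12:73907617-73907866 (plus) for Hif1a, chr7:46845554-46845803 (plus) for Ldha, chr6:142507958-142508207 (minus) for Ldhb, chr17:8283537-8283786 (plus) for Mpc1 and chr7:80115351-80115600 (minus) for Idh2.
Pfkfb3: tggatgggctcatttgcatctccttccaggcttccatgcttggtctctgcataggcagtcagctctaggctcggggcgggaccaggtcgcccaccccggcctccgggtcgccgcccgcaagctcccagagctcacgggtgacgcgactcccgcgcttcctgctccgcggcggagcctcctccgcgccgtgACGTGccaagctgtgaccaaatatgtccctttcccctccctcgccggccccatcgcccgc
Hif1a: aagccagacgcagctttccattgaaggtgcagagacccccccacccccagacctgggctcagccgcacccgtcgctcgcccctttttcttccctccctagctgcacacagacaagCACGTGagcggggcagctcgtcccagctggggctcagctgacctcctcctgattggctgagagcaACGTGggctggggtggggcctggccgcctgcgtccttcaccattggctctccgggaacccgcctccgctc
Ldha: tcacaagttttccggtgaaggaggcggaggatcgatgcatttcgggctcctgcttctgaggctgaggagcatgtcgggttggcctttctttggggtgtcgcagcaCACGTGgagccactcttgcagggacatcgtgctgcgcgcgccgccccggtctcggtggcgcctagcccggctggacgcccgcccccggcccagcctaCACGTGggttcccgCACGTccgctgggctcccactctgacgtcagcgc
Ldhb: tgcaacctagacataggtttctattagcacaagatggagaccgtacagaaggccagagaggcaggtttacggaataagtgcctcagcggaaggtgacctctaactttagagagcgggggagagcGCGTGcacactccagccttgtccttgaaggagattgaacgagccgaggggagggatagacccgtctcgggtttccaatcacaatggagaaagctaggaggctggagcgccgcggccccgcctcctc
Mpc1: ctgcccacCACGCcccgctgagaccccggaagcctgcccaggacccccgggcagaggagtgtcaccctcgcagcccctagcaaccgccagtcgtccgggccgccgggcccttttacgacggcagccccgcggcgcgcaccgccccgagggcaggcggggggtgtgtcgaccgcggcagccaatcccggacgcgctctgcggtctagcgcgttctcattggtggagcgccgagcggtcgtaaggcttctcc
Idh2: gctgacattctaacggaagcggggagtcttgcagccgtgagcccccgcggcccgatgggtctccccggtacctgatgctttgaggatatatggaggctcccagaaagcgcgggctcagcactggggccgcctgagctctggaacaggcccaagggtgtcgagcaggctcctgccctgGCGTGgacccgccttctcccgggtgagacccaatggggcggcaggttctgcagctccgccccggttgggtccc

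The RefSeq table lists 2 windows each for Ldha, Pfkfb3 and Mpc1, and the first listed is shown. The window of Ldha held 3 such stretches, at 145, 48 and 34 bases before the start, and that of Hif1a held 2, at 135 and 70 bases. Those of Pfkfb3, Ldhb, Mpc1 and Idh2 held 1 each. The windows not shown held 1 stretch for Ldha, 2 for Pfkfb3, with CACGTG among them, and 0 for Mpc1. Of the 56 genes, 53 matched a window by symbol, and 43 of these (81.1%) held at least 1 stretch in some window, against 57.6% of the 12207 tested genes with a window and 41.5% of all 27025 genes in the RefSeq table. The palindrome CACGTG was in 17% of the listed genes, 9.23% of the tested genes and 6.86% of all. Median GC content was 61% in the listed genes' windows, 58.8% in those of tested genes and 52.4% in all, and the part of GC content in the shares was not tested. The matches are descriptions of sequence and were present in genes that moved in opposite directions.

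Some facts of the whole series bear on every value below. Reads recovered from the TPM values ranged from 8 M (mega reads) in KO_LPS_4 to 32.3 M in a WT LPS library. Rheb stood at 32.1 ± 2.39 TPM (SD, n = 3) in WT PBS and 18.2 ± 1.43 TPM (n = 3) in KO PBS (log2 fold change -0.79, adjusted p = 0.0163), and at 30.8 ± 3.83 and 22.7 ± 2.43 TPM (n = 4 each) under LPS, where it was not called. The defining microglial genes were high in every library, with a summed level of 8 markers of 22802 to 29353 TPM under PBS and 11973 to 19354 TPM under LPS, and with Tmem119 lower in KO than in WT under both treatments. PBS libraries carried male transcripts (Ddx3y 111 to 146 TPM) and LPS libraries female ones (Xist 255 to 574 TPM), although the series text names females, so treatment and sex cannot be told apart in any LPS to PBS comparison. The short feature Gm23935 took 4.04% to 15.4% of the total in LPS libraries and at most 0.248% in PBS libraries, which lowers all other TPM values of LPS libraries. WT_PBS_914 and KO_LPS_3 were rich in pituitary hormone transcripts, with Gh at 78126 and 19672 TPM against at most 1.9 TPM elsewhere. Levels are of bulk RNA, in which fewer cells of a type and less RNA per cell cannot be told apart.

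**Figure D1:**
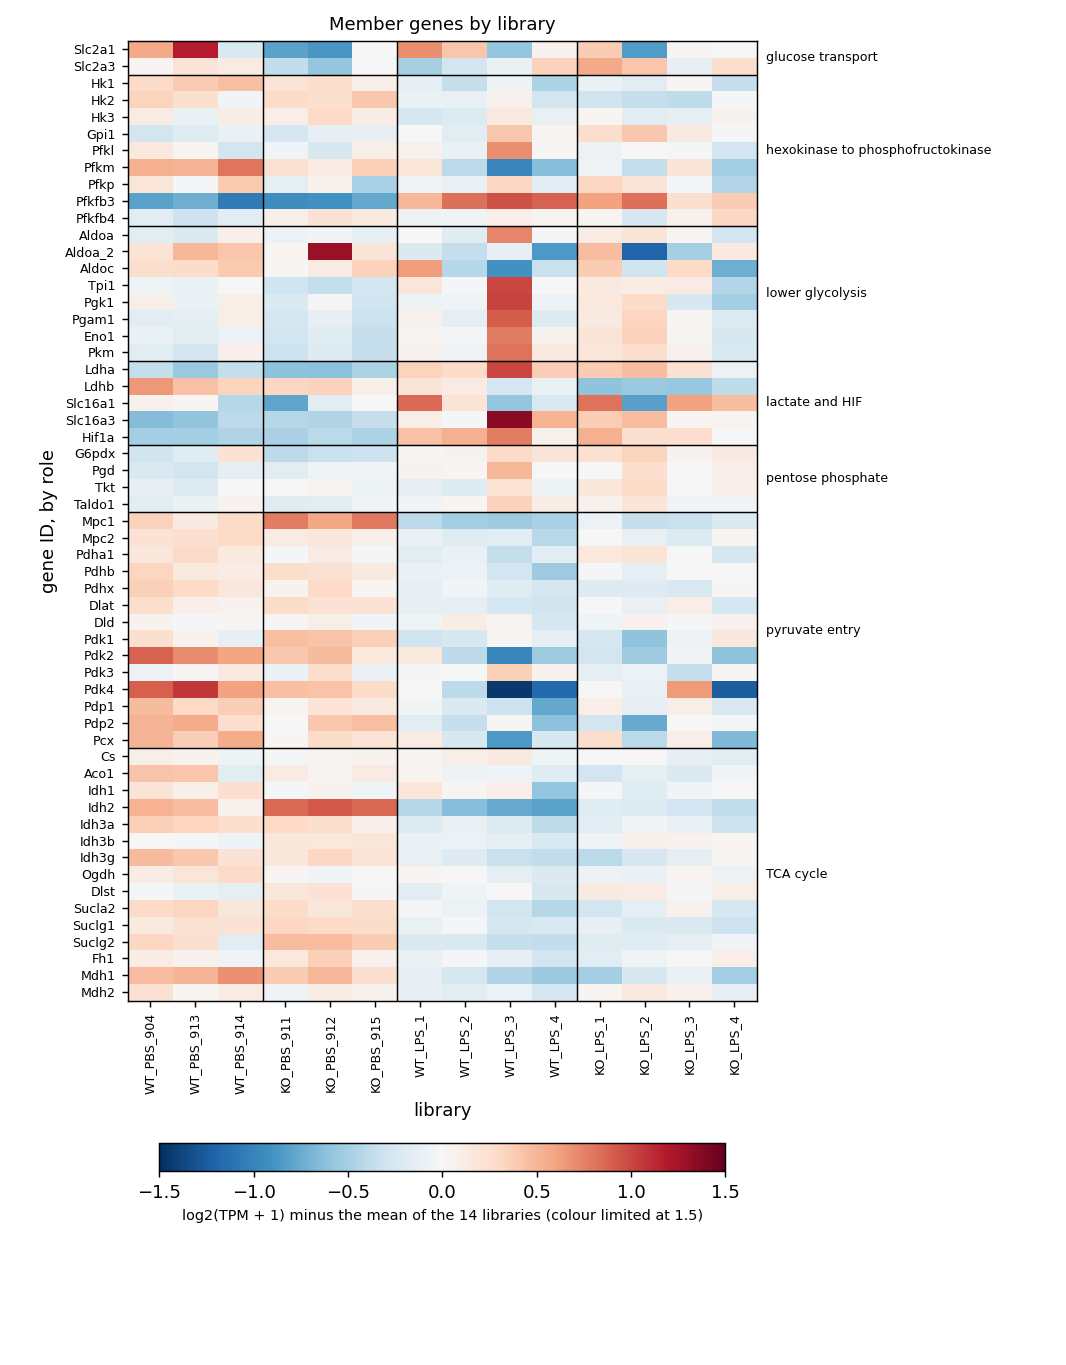
Levels of the 57 gene IDs in each of the 14 libraries, as log2(TPM + 1) minus the gene's mean over the libraries (colour), with genes ordered by role on the vertical axis and libraries by group on the horizontal axis. Pfkfb3, Ldha and Hif1a are red in LPS libraries, most pyruvate entry and TCA cycle genes are bluer there, and WT_LPS_3 stands out in lower glycolysis.

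The first question was whether loss of Rheb moved these genes in microglia without LPS. Under PBS, 1 of the 57 gene IDs was called (adjusted p under 0.05 in limma on log2(TPM + 1), all 18724 genes), which is 1.75% against 1.02% of all genes (0.796% higher, 0.224% lower). The called gene was Mpc1, a subunit of the mitochondrial pyruvate carrier that brings pyruvate into the matrix. Its 3 WT libraries stood at 57.2, 49.4 and 55 TPM and its 3 KO libraries at 77.3, 67.8 and 78.7 TPM. Every KO library was above every WT library, and the log2 fold change was 0.46 (SE 0.09, adjusted p = 0.0434). The call sat near the threshold: it was lost without any 1 of the 6 PBS libraries (adjusted p 0.0673 to 0.16, log2 fold change 0.40 to 0.53), and without WT_PBS_914 and KO_LPS_3 the value was 0.48 with an adjusted p of 0.127. Mpc2, the other carrier subunit, stood at 15.6 TPM (mean, n = 3) in WT and 14.2 TPM in KO, all 3 KO libraries being below the WT ones.

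Idh2, the mitochondrial NADP-dependent isocitrate dehydrogenase, had a larger difference in the fit of all libraries, and it did not pass. Its WT PBS libraries stood at 158, 152 and 115 TPM and its KO PBS libraries at 199, 209 and 200.4 TPM. The groups did not overlap, and the log2 fold change was 0.53 (SE 0.12, adjusted p = 0.0581). Under median-of-ratios scaling, under rescaling without dominant genes and in voom on the recovered reads, Idh2 was called under PBS (adjusted p 0.0443, 0.0359 and 0.0338) and Mpc1 was not (0.0577, 0.0501 and 0.0635). Without overlap between the PBS groups, KO was higher for 8 gene IDs and lower for 14, against 14.9% and 10.9% of all genes tested. The median log2 fold change of the 57 IDs was -0.11, and of all genes 0.00.

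The same question under LPS gave no called gene among the 57, where 0.497% of all genes were called (0.256% higher, 0.24% lower), and 9 had an unadjusted limma p under 0.05, as did 11.7% of all genes. The smallest adjusted p was that of Ldhb, the lactate dehydrogenase subunit that favours turning lactate back into pyruvate. Ldhb stood at 469, 447, 343 and 378 TPM in WT LPS and at 269, 279, 275 and 315 TPM in KO LPS. All 4 KO libraries were below all 4 WT libraries, and the log2 fold change was -0.51 (SE 0.11, adjusted p = 0.0635). It was called without WT_LPS_3, with a filter at 5 TPM, under median-of-ratios scaling (-0.60, adjusted p = 0.0167) and in voom (-0.52, 0.0166). It was not called after rescaling without dominant genes (-0.46, adjusted p = 0.0566) or in a fit of the compared groups alone. Nor was it called without WT_PBS_914 and KO_LPS_3, or with any other single LPS library left out. Its partner Ldha, which favours making lactate from pyruvate, had a log2 fold change of -0.25 (adjusted p = 0.572), and its groups overlapped. Without overlap under LPS, KO was higher for 4 IDs and lower for 1, against 4.22% and 1.96% of all genes.

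Averaging the genotype effect over both treatments used all 14 libraries, and called 5 of the 57 (8.77%, against 3.94% of all genes, 3.03% higher and 0.913% lower): Mpc1, Idh2, Idh3b and Dlst higher and Ldhb lower in KO. This average reuses the libraries of both comparisons above and adds no independent evidence to them. Mpc1 averaged 0.35 (SE 0.06, adjusted p = 0.00727) and Idh2 0.46 (SE 0.08, adjusted p = 0.00733). Both kept their call whichever single library was left out, with adjusted p of at most 0.0269 and 0.0252, and also without WT_PBS_914 and KO_LPS_3 (0.0239 and 0.0216). Idh3b, a subunit of the NAD-dependent isocitrate dehydrogenase, averaged 0.19 (SE 0.04, adjusted p = 0.025), and Dlst, a subunit of the oxoglutarate dehydrogenase complex, 0.21 (SE 0.05, adjusted p = 0.0439). These calls and that of Ldhb (-0.37, SE 0.08, adjusted p = 0.0283) were each lost when single libraries were left out: 6 of 14 for Idh3b, 11 for Dlst and 9 for Ldhb. Under median-of-ratios scaling Idh3b (0.13, adjusted p = 0.177) and Dlst (0.16, 0.197) were not called.

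Idh3b was the steadiest of these between libraries. It stood at 78.7, 77.8 and 75.2 TPM in WT PBS and at 89.3, 88.3 and 90 TPM in KO PBS. Under LPS it stood at 73.7, 74.5, 72 and 67.5 TPM in WT and at 76.1, 83.4, 83 and 80.8 TPM in KO. KO libraries were above WT libraries under each treatment, by 1.15 and 1.12 times in mean TPM. Dlst stood at 54.1, 51.5 and 50.2 TPM in WT PBS and 62.4, 64.3 and 56.1 TPM in KO PBS. Under LPS it stood at 49.4, 52.9, 55.2 and 46.8 TPM in WT and 60.7, 60.4, 54.8 and 59.3 TPM in KO, where 1 KO library lay within the WT range.

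Mpc1, Idh2, Idh3b and Suclg2 were higher in every KO library than in every WT library of the same treatment, a pattern that 1.87% of all genes showed, and none of the 57 showed the reverse, which 0.513% of all genes did. Suclg2, a subunit of the GTP-forming succinyl-CoA ligase, stood at 53.6, 51 and 38 TPM in WT PBS and 59.5, 59.7 and 56.3 TPM in KO PBS. Under LPS it stood at 36.7, 36.6, 33.6 and 33 TPM in WT and 37.8, 37.6, 38.8 and 41.7 TPM in KO. Its average was 0.23 (SE 0.07, adjusted p = 0.108) and was not called. The 4 genes belong to pyruvate import, to the isocitrate dehydrogenase step (Idh2 and Idh3b) and to the succinyl-CoA ligase step, while other subunits of the same enzymes did not follow them: the averages of Idh3a and Idh3g were -0.02 and -0.04, and that of Suclg1 was 0.02, each with an adjusted p above 0.8. Microglial marker sums, Tmem119 among the markers, were 29353, 27102 and 22802 TPM in WT PBS and 26254, 25204 and 26846 TPM in KO PBS. The groups overlapped through WT_PBS_914 (22802 TPM), the library rich in pituitary hormone transcripts. Under LPS the WT sums were 15728 to 19354 TPM and the KO sums 11973 to 16949 TPM. The part of cell content in the genotype differences was not tested.

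**Figure D2:**
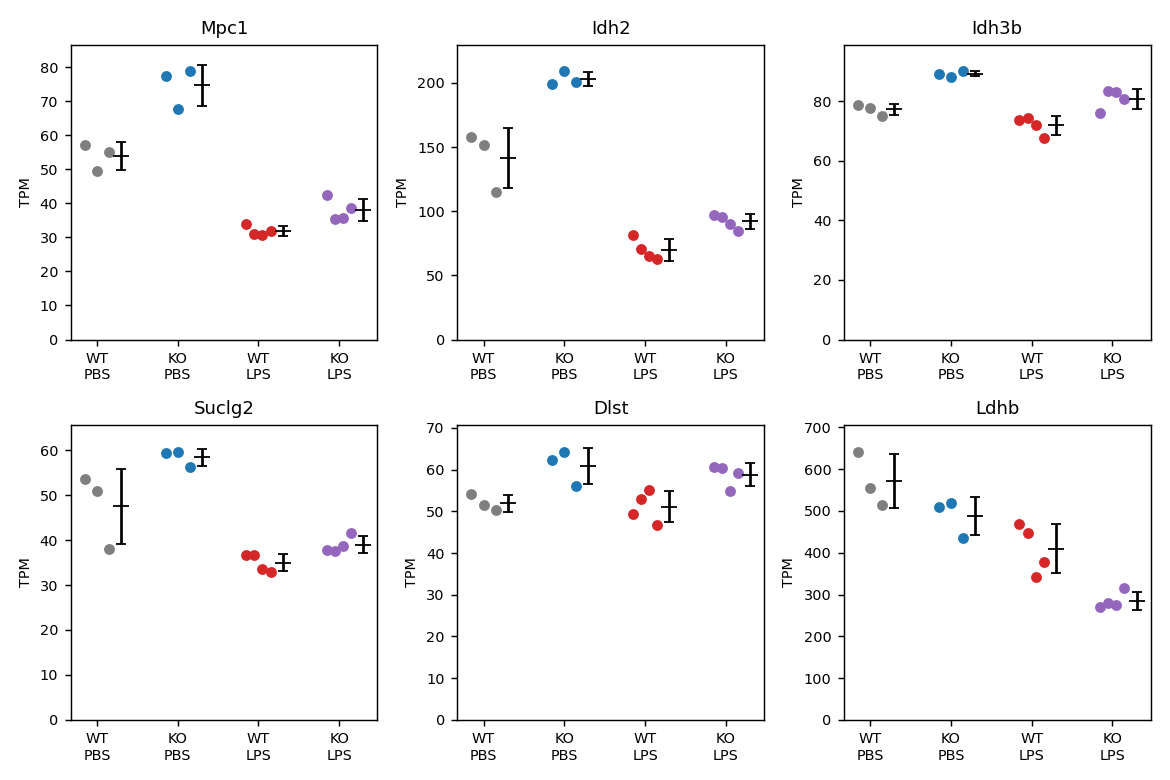
TPM of 6 genes in each library (points) by group on the horizontal axis, with the group mean and SD beside the points. For Mpc1, Idh2, Idh3b and Suclg2 all KO points lie above the WT points of the same treatment, and for Ldhb the KO points under LPS lie below the WT points.

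No glycolytic enzyme gene was called between genotypes. In lower glycolysis, 6 of 8 IDs had a negative log2 fold change under PBS and 6 of 8 under LPS, with medians of -0.16 and -0.13 and no adjusted p below 0.6. Tpi1, triosephosphate isomerase, named after its values were seen, stood at 142, 139 and 149 TPM in WT PBS and 121, 116 and 122 TPM in KO PBS, without overlap (-0.26, adjusted p = 0.61). Hif1a hardly differed, at 66.9 ± 1.48 TPM (SD, n = 3) in WT PBS and 68.7 ± 2.14 TPM (n = 3) in KO PBS (log2 fold change 0.04, SE 0.15). Hk2, the hexokinase isoform tied to growth signalling, stood at 227, 213 and 175 TPM in WT PBS and 218, 213 and 237 TPM in KO PBS, and its groups overlapped. Pfkfb4, which makes the allosteric activator of phosphofructokinase and was also named after its values were seen, stood at 43.2, 38.7 and 43.2 TPM in WT PBS and 51.4, 56.1 and 53.6 TPM in KO PBS, without overlap (0.36, adjusted p = 0.167).

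The kinases that switch off pyruvate dehydrogenase were uneven between genotypes under PBS, and none was called. Pdk1 stood at 46.6, 40.7 and 36.1 TPM in WT and 54.1, 53.1 and 50.4 TPM in KO (0.35, SE 0.16, adjusted p = 0.318). Pdk2 stood at 33.2, 29.3 and 26.9 TPM in WT and 23.6, 24.8 and 19.7 TPM in KO (-0.38, SE 0.23, adjusted p = 0.454). Pdk4, the kinase linked to fasting and fat oxidation, stood at 14.3, 16.2 and 11.5 TPM in WT and 10.2, 10.1 and 8.95 TPM in KO. Pdk1 was thus higher, and Pdk2 and Pdk4 lower, in every KO library, and under LPS all 3 overlapped between genotypes. Pdha1, the catalytic subunit that these kinases phosphorylate, stood at 70.9, 76.9 and 69.6 TPM in WT PBS and 62, 68.4 and 62.4 TPM in KO PBS. Under LPS it stood at 56.1, 58.9, 49.1 and 56 TPM in WT and 70.3, 72.7, 63.2 and 52.1 TPM in KO, and the change of its genotype effect between treatments had an adjusted p of 0.491.

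Slc2a1, the glucose transporter GLUT1 known for brain endothelium, had the largest genotype difference in size. It stood at 943, 1431 and 540.2 TPM in WT PBS and at 362, 346 and 633 TPM in KO PBS. The groups overlapped, and the log2 fold change was -1.07 (SE 0.41, adjusted p = 0.233). Endothelial and mural markers moved with it: their sum over 8 genes, none at 0 in all libraries, was 853, 1074 and 682 TPM in the same WT libraries and 368, 451 and 784 TPM in the KO libraries. Across all 14 libraries, Slc2a1 per summed marker TPM lay between 0.724 and 1.33, while Slc2a1 itself spanned 346 to 1431 TPM. The part of endothelial RNA in the difference was not tested. Slc2a3, the transporter GLUT3, stood at 27.4, 30.9 and 29.3 TPM in WT PBS and 20.6, 17.7 and 26.9 TPM in KO PBS, without overlap (-0.43, adjusted p = 0.359). Its neuronal expression is known. The sum of 8 neuronal markers was 21.5, 20.6 and 71.2 TPM in WT PBS and 11.8 to 18.9 TPM in KO PBS. The 71.2 TPM was in WT_PBS_914, a library rich in pituitary hormone transcripts, where Slc2a3 stood at 29.3 TPM. The part of neuronal RNA in the difference was not tested.

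No gene of the 57 was called in the test of whether the genotype effect differed between treatments. In that limma test 0% of all 18724 genes were called, 5 of the 57 and 9.51% of all genes had an unadjusted p under 0.05, and voom called none of the 57 either. The smallest adjusted p among them was 0.462, for Slc2a3.

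**Figure D3:**
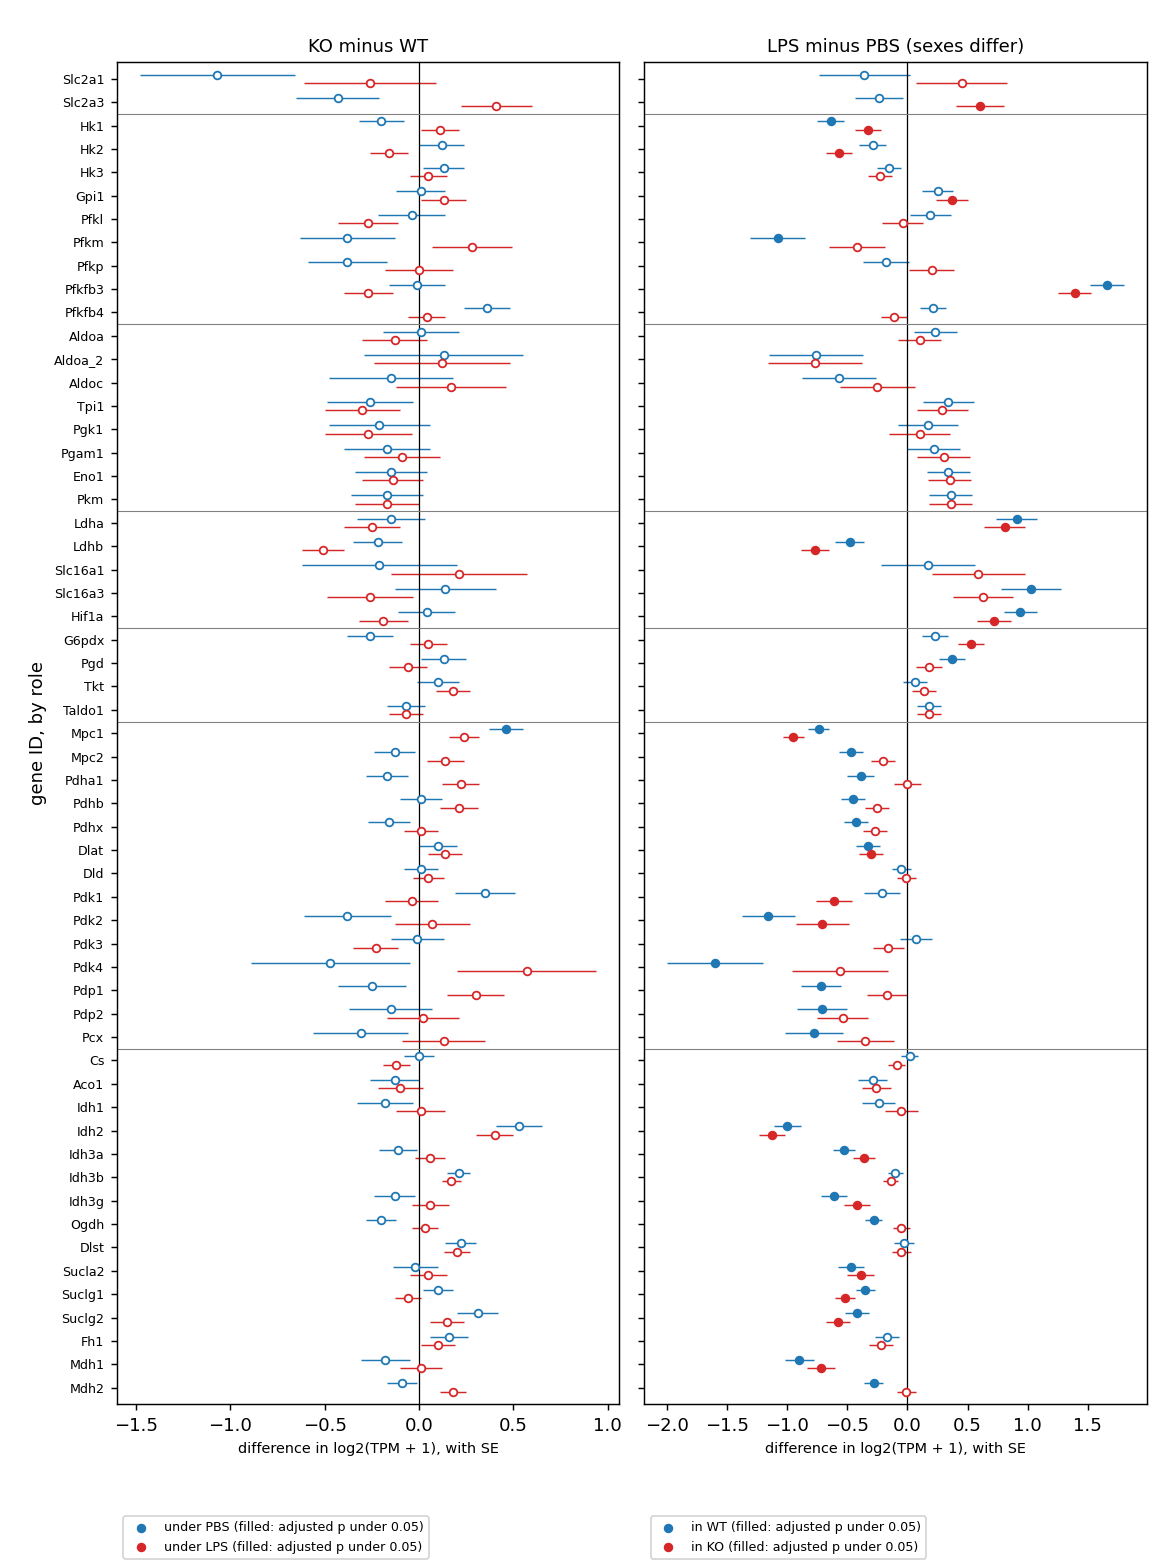
Differences in log2(TPM + 1) with SE on the horizontal axis for the 57 gene IDs on the vertical axis, for KO minus WT (left) and LPS minus PBS (right); filled points are called. Between genotypes only Mpc1 under PBS is filled, while LPS minus PBS shows Pfkfb3, Ldha and Hif1a to the right and Idh2, Mpc1 and Mdh1 to the left in both genotypes.

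LPS was given to ask how inflamed microglia differ from resting ones. In WT, 28 of the 57 were called (49.1%, against 42% of all genes), 5 higher and 23 lower (7.95% and 34.1% of all genes). In KO, 20 were called (35.1%, against 34.7%), 6 higher and 14 lower (7.82% and 26.9%). Scaling moved this split, and the cause was not tested. The median of all genes was -0.28 in WT and -0.22 in KO, and after rescaling without dominant genes, Gm23935 among them, it was -0.20 and -0.07. Under median-of-ratios scaling these medians became 0.01 and 0.00, and the members called were 18 higher and 8 lower in WT and 12 and 6 in KO. In voom they were 12 and 18 in WT and 11 and 8 in KO, and after rescaling without dominant genes 5 and 19 in WT and 11 and 8 in KO. Members called in the same direction under all 4 of these scalings numbered 5 higher and 8 lower in WT (7.22% and 13.1% of all genes) and 6 higher and 6 lower in KO (6.97% and 9.9%). Higher in both genotypes under all 4 were Pfkfb3, Hif1a and Ldha, and lower in both were Mpc1, Idh2 and Mdh1. Pgd and Slc16a3 rose and Idh3g, Pdk2, Pdk4, Pdp1 and Pfkm fell in this set in WT, and Slc2a3, Gpi1 and G6pdx rose and Ldhb, Suclg1 and Suclg2 fell in it in KO. Without overlap between the groups, LPS was higher than PBS for 7 gene IDs and lower for 25 in WT, against 8.45% and 37.4% of all genes. In KO it was higher for 8 and lower for 20, against 9.52% and 31.3%. Treatment and sex cannot be told apart in these values, and the comparisons in WT and KO share no library.

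Pfkfb3 had the largest rise. It encodes the bifunctional enzyme with the strongest drive toward fructose 2,6-bisphosphate, the activator of phosphofructokinase. The PBS libraries stood at 75.6, 79.5 and 63.3 TPM in WT and 69, 70.1 and 77.7 TPM in KO. The LPS libraries stood at 188, 236, 259 and 246 TPM in WT and 203, 236, 157 and 174 TPM in KO. The lowest LPS library (157 TPM) was above the highest PBS library (79.5 TPM), and the log2 fold change was 1.66 in WT (SE 0.14, adjusted p = 8.04e-06) and 1.39 in KO (SE 0.14, adjusted p = 2.36e-05). The difference between these effects was -0.27 (SE 0.20, adjusted p = 0.68). Its paralog Pfkfb4 had log2 fold changes of 0.21 and -0.11 and was not called in either genotype.

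Of the 9 genes from hexokinase to phosphofructokinase, 1 was called higher and 2 lower in WT, and 2 higher and 2 lower in KO, where 7.95% and 34.1% of all genes were called in WT and 7.82% and 26.9% in KO. Hk1, the housekeeping hexokinase, fell in both genotypes, from 34.3, 36.5 and 38.3 TPM to 25.2, 21.5, 26.3 and 19.7 TPM in WT (-0.64, adjusted p = 0.00103) and from 31.9, 33.5 and 29.4 TPM to 25.8, 24.7, 28.4 and 21.6 TPM in KO (-0.33, adjusted p = 0.0398). Hk2 fell in KO, from 218, 213 and 237 TPM to 146, 139.6, 138 and 177 TPM (-0.57, adjusted p = 0.00183), and had -0.29 in WT (adjusted p = 0.0534). The Hk1 call in KO was lost without any 1 of 6 of the 7 libraries, and its value was -0.07 to -0.16 under the 3 other scalings. Neither Hk1 nor Hk2 was called under median-of-ratios scaling. Hk3, a hexokinase of myeloid cells, was not called, at 101 to 119 TPM in WT PBS and 91.3 to 121 TPM in WT LPS. Pfkm, the muscle-type phosphofructokinase subunit, fell in WT from 37.4, 36.8 and 45 TPM to 29.1, 19.1, 12.3 and 16 TPM (-1.08, SE 0.23, adjusted p = 0.00312). In KO it stood at 30.1, 27.9 and 32.9 TPM under PBS and 24.4, 19.7, 29.2 and 17.5 TPM under LPS (-0.42, adjusted p = 0.181). Pfkl and Pfkp, the liver and platelet subunits, were not called in either genotype. Gpi1, glucose-6-phosphate isomerase, rose in KO from 122, 133 and 134 TPM to 175, 193, 159.7 and 144 TPM (0.37, adjusted p = 0.0376), a call lost without any 1 of 5 libraries.

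Glucose transporters differed from each other. Slc2a3 rose in KO from 20.6, 17.7 and 26.9 TPM to 40.3, 36.1, 24.6 and 32.4 TPM (0.60, SE 0.20, adjusted p = 0.0362), with 1 LPS library inside the PBS range, and the call was lost without any 1 of 5 libraries. In WT it stood at 18.8, 22.1, 25.1 and 34.4 TPM under LPS and was not called. Slc2a1 under LPS stood at 1030.4, 846, 424 and 658 TPM in WT and 828, 355, 641 and 629.9 TPM in KO and was not called. Its lowest LPS libraries, KO_LPS_2 and WT_LPS_3, were also those with the lowest endothelial and mural marker sums, at 315 and 432 TPM.

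None of the 8 lower glycolysis IDs was called in either genotype in the TPM as deposited. Aldoa, aldolase, stood at 361, 316, 597 and 356 TPM in WT LPS and 389, 411, 364 and 294 TPM in KO LPS, against 310.2 to 378 TPM in all PBS libraries. Pkm, pyruvate kinase, stood at 277, 257 and 328 TPM in WT PBS and 323, 299, 547 and 340.3 TPM in WT LPS (0.36, adjusted p = 0.133). In KO it stood at 248, 270.4 and 244 TPM under PBS and 353, 372, 324 and 264 TPM under LPS (0.36, adjusted p = 0.148). Against the median of all genes the steps from Aldoa to Pkm stood higher: their medians over the 8 IDs were 0.23 and 0.20, and under median-of-ratios scaling 0.57 and 0.46, with Tpi1, Eno1 and Pkm called higher in WT and Eno1 and Pkm in KO. Aldoc, an isoform of astrocytes, was not called, at 67.3 to 87.3 TPM under PBS and 35 to 103 TPM under LPS. The summed astrocyte markers stood at 365 to 684 TPM under PBS and 261 to 547 TPM under LPS. Aldoa, Tpi1, Pgk1, Pgam1, Eno1, Pkm and Ldha have near-identical pseudogene copies in the mouse genome, so their counts depend on how shared reads were assigned.

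The 2 lactate dehydrogenase genes moved in opposite directions. Ldha rose from 151, 131 and 151 TPM to 244, 234, 387 and 249.8 TPM in WT (0.91, SE 0.17, adjusted p = 0.00117) and from 126, 126 and 139 TPM to 251, 267, 225 and 182 TPM in KO (0.81, SE 0.17, adjusted p = 0.00234). Ldhb fell from 642, 556 and 515 TPM to 469, 447, 343 and 378 TPM in WT (-0.48, SE 0.12, adjusted p = 0.00635). In KO it fell from 509, 519.8 and 435 TPM to 269, 279, 275 and 315 TPM (-0.77, SE 0.12, adjusted p = 0.000388). LPS and PBS libraries of a genotype did not overlap for either gene. Under median-of-ratios scaling the fall of Ldhb in WT was not called (-0.15, adjusted p = 0.327), while that in KO was (-0.51, 0.00439).

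The lactate exporter and the HIF subunit went the way of Ldha. Slc16a3, the monocarboxylate transporter MCT4 known for lactate export, rose in WT from 18.8, 19.7 and 22.7 TPM to 32.3, 29.6, 78.2 and 43.6 TPM (1.03, SE 0.25, adjusted p = 0.00628). In KO it stood at 22.2, 21.8 and 23.5 TPM under PBS and 39.1, 41.9, 31 and 30.9 TPM under LPS, without overlap (0.63, SE 0.25, adjusted p = 0.0684). Hif1a rose from 66.3, 65.9 and 68.6 TPM to 128, 137, 162 and 98.5 TPM in WT (0.94, SE 0.14, adjusted p = 0.000413). In KO it rose from 66.9, 71 and 68.2 TPM to 137, 112, 113 and 95.1 TPM (0.72, SE 0.14, adjusted p = 0.00213). The PBS libraries of both genotypes lay within 65.9 to 71 TPM, so the spread of Hif1a was in the LPS libraries. Slc16a1, the transporter MCT1 of endothelium among other cells, was not called, at 36 to 66 TPM under PBS and 35.3 to 114 TPM under LPS.

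Markers of other myeloid cells also differed with treatment, and their part in the rises was not tested. The sum over 8 neutrophil and monocyte markers, none at 0 in all libraries, was 4039.6 to 6286 TPM in 5 PBS libraries, 18219 TPM in WT_PBS_914 and 8477 to 20588 TPM in the LPS libraries. Cxcr2, a neutrophil receptor, stood at 17.1 to 56.4 TPM under PBS and 61.1 to 159.9 TPM under LPS. Ly6g, another neutrophil marker of the 8, overlapped between treatments, at 17.6 to 80.2 TPM under PBS and 16.5 to 48.1 TPM under LPS. WT_PBS_914 had a marker sum in the LPS range, most of it S100a8 (5875 TPM) and S100a9 (11134 TPM). Its Cxcr2 (56.4 TPM) was below every LPS library, while its Ly6g (80.2 TPM) was the highest of all 14 libraries. Its Ly6c2 (86.9 TPM), Mmp8 (264 TPM), Chil3 (693 TPM) and Ccr2 (30.4 TPM) lay within the ranges of the LPS libraries. In the same library 5 pituitary markers summed to 88688 TPM. Its Pfkfb3 (63.3 TPM) was the lowest of all 14 libraries. Its Ldha (151 TPM) and Hif1a (68.6 TPM) lay within the range of the other PBS libraries, 126 to 151 and 65.9 to 71 TPM. These values of 1 library do not show what part such cells had in the rises.

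**Figure D4:**
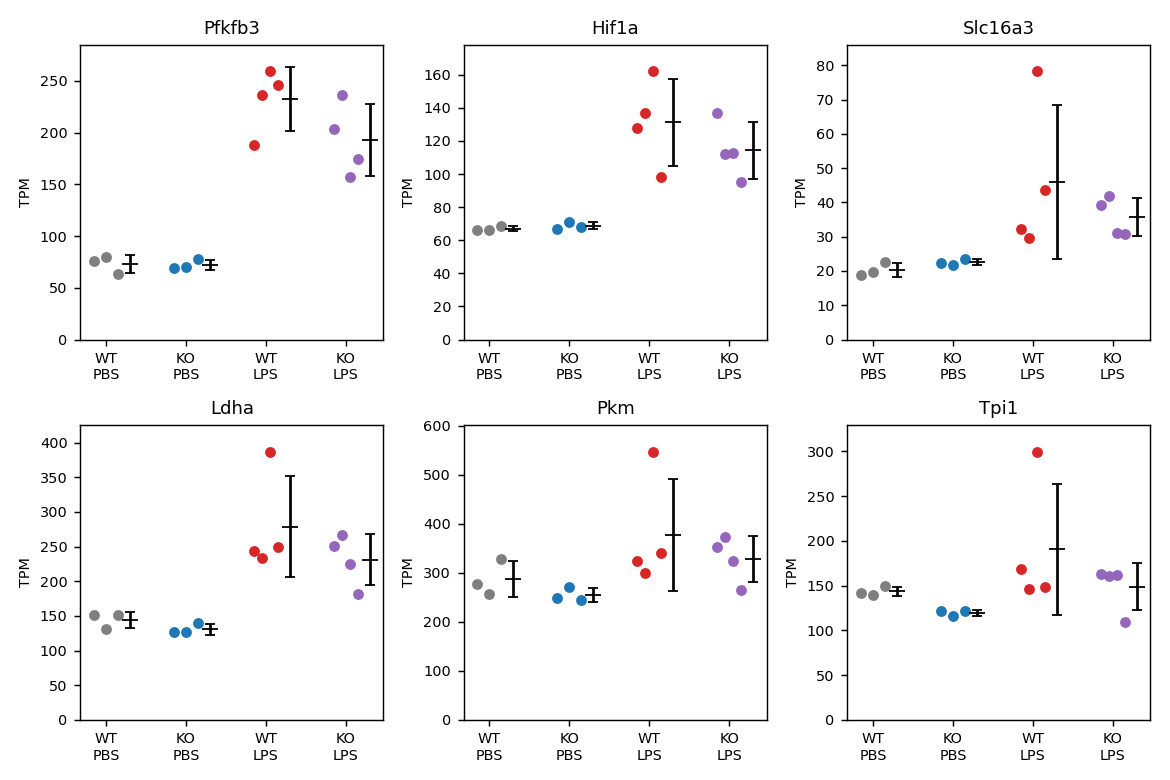
TPM of 6 glycolysis, lactate and HIF genes in each library (points) by group on the horizontal axis, with the group mean and SD beside the points. LPS points of Pfkfb3, Hif1a, Slc16a3 and Ldha lie above the PBS points of the same genotype, and 1 WT LPS point (WT_LPS_3) lies far above the others for Slc16a3, Ldha, Pkm and Tpi1.

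In the pentose phosphate pathway, which makes NADPH and ribose, each of the 4 genes had a positive log2 fold change in both genotypes. Pgd, 6-phosphogluconate dehydrogenase, rose in WT from 103, 99.6 and 109.7 TPM to 126, 124, 172 and 122 TPM (0.37, adjusted p = 0.0172), a call lost without WT_PBS_904 or WT_PBS_913. G6pdx, the first enzyme of the pathway, rose in KO from 75.2, 78.1 and 80 TPM to 116, 125, 103 and 109 TPM (0.53, SE 0.11, adjusted p = 0.00304). In WT G6pdx stood at 80.4, 87.1 and 115 TPM under PBS and 101, 103, 121 and 113 TPM under LPS. Under median-of-ratios scaling all 4 genes, Tkt and Taldo1 included, were called higher in both genotypes.

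Pyruvate entry was the role with most falls in WT: 11 of 14 genes (78.6%) were called lower and none higher, against 34.1% of all genes lower. In KO 4 (28.6%) were lower and none higher, close to the 26.9% of all genes. Under median-of-ratios scaling 4 were lower and 1 higher in WT, and 1 lower and none higher in KO. Mpc1 fell from 57.2, 49.4 and 55 TPM to 34, 31.1, 30.7 and 31.8 TPM in WT (-0.74, SE 0.09, adjusted p = 8.38e-05). In KO it fell from 77.3, 67.8 and 78.7 TPM to 42.4, 35.3, 35.6 and 38.7 TPM (-0.95, SE 0.09, adjusted p = 1.09e-05). The lowest PBS library of either genotype (49.4 TPM) was above the highest LPS library (42.4 TPM). Mpc2 fell in WT, from 15.2, 15.6 and 16.1 TPM to 12, 11.3, 11.4 and 9.42 TPM (-0.47, adjusted p = 0.00376), and had -0.20 in KO (adjusted p = 0.168).

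The subunits of pyruvate dehydrogenase fell in WT by similar amounts. Pdha1 fell by 0.39 on the log2 scale (adjusted p = 0.0104), Pdhb by 0.45 (0.00431), Pdhx, which anchors Dld in the complex, by 0.43 (0.00474), and Dlat, the acetyl-transferring subunit, by 0.33 (0.0147). The WT call of Dlat was lost without WT_PBS_904. In KO Dlat fell by 0.30 (adjusted p = 0.0289), a call lost without any 1 of 5 libraries and under the 3 other scalings (adjusted p 0.339 to 0.76), while Pdha1 had 0.00 (adjusted p = 0.986). Dld, the subunit shared with other dehydrogenase complexes, was not called in either genotype (-0.05 and -0.01). None of these 4 falls in WT was called under all 4 scalings.

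In WT, genes on both sides of the switch on pyruvate dehydrogenase were called lower. Pdk2 fell from 33.2, 29.3 and 26.9 TPM to 19.7, 13.2, 8.4 and 11.8 TPM in WT (-1.16, SE 0.22, adjusted p = 0.00147) and from 23.6, 24.8 and 19.7 TPM to 14.3, 11.8, 17.1 and 11.2 TPM in KO (-0.71, SE 0.22, adjusted p = 0.0239). The call in KO was lost without any 1 of 4 libraries and under the 3 other scalings (adjusted p 0.0895 to 0.182). Pdk4 fell in WT from 14.3, 16.2 and 11.5 TPM to 7.16, 5.28, 2.02 and 2.66 TPM (-1.60, SE 0.40, adjusted p = 0.00663). In KO its LPS libraries stood at 7.22, 6.62, 11.8 and 2.49 TPM, overlapping the PBS ones (-0.56, adjusted p = 0.302). Pdk1 fell in KO from 54.1, 53.1 and 50.4 TPM to 32.5, 25.4, 37.2 and 44.2 TPM (-0.61, SE 0.15, adjusted p = 0.00823), with -0.21 in WT (adjusted p = 0.274). The Pdk1 call in KO was lost under median-of-ratios scaling. Pdk3 stood at 19.6 to 25.6 TPM under PBS and 16.3 to 27.4 TPM under LPS and was not called. The phosphatases that switch the complex on, Pdp1 and Pdp2, fell in WT (-0.72, adjusted p = 0.00464, and -0.71, adjusted p = 0.0156) and were not called in KO, and the call of Pdp2 was lost without WT_PBS_904 or WT_PBS_913. Pcx, pyruvate carboxylase, which feeds oxaloacetate to the cycle, fell in WT from 17.4, 15.7 and 18.1 TPM to 13.1, 9.97, 6.12 and 9.93 TPM (-0.78, adjusted p = 0.0184), a call lost without WT_PBS_904 or WT_PBS_914.

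Of the 15 TCA cycle genes, 9 (60%) were called lower in WT and 7 (46.7%) in KO, against 34.1% and 26.9% of all genes, and none higher. Under median-of-ratios scaling 3 were lower and 3 higher in WT, and 4 lower and none higher in KO. Idh2 had the largest fall of the cycle. It went from 158, 152 and 115 TPM to 81.6, 70.6, 65.1 and 62.5 TPM in WT (-1.0, SE 0.11, adjusted p = 6.93e-05) and from 199, 209 and 200.4 TPM to 97.2, 95.8, 90.4 and 84.8 TPM in KO (-1.13, SE 0.11, adjusted p = 2.08e-05). The highest LPS library of either genotype (97.2 TPM) was below the lowest PBS library (115 TPM). Idh1, the cytosolic isoform, was not called (-0.24 and -0.05).

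The NAD-dependent isocitrate dehydrogenase was split by subunit. Idh3a, its catalytic subunit, fell by 0.53 in WT on the log2 scale (adjusted p = 0.000797) and by 0.36 in KO (adjusted p = 0.00814). Idh3g fell by 0.61 (adjusted p = 0.000882) and 0.42 (adjusted p = 0.00873). Idh3b had -0.10 and -0.14 and was not called (adjusted p = 0.175 and 0.0775). The succinyl-CoA ligase subunits Sucla2, Suclg1 and Suclg2 fell in both genotypes, by 0.47, 0.35 and 0.42 in WT and by 0.39, 0.52 and 0.58 in KO. The median of all genes was -0.28 in WT and -0.22 in KO. Of the falls of Idh3a, Idh3g and these ligase subunits, only Idh3g in WT and Suclg1 and Suclg2 in KO were called under all 4 scalings. Mdh1, the cytosolic malate dehydrogenase of the malate-aspartate shuttle, fell from 194, 201 and 228 TPM to 127, 118, 103 and 95.1 TPM in WT (-0.90, SE 0.12, adjusted p = 0.000219). In KO it fell from 183, 199.9 and 167 TPM to 98.3, 119, 131 and 98.8 TPM (-0.72, SE 0.12, adjusted p = 0.000788). The mitochondrial isoform Mdh2 and Ogdh, the first subunit of the oxoglutarate dehydrogenase complex, fell in WT (-0.28 each, adjusted p = 0.0122 and 0.00856) and were not called in KO, with adjusted p of 0.501 and 0.519 for the difference between the genotypes, and under median-of-ratios scaling both turned positive (0.05 and 0.06). The call of Mdh2 was also lost without WT_PBS_904. Cs, citrate synthase, Aco1, the cytosolic aconitase, Dlst and Fh1, fumarase, were not called in either genotype, and Cs stood at 59.4 to 66.6 TPM under PBS and 55.6 to 68.6 TPM under LPS.

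Ratios within a library do not move with its scaling. The summed TPM of the 15 TCA cycle genes per summed TPM of the 8 lower glycolysis IDs was 0.962, 0.989 and 0.81 in WT PBS and 1.04, 1.01 and 1.03 in KO PBS. Under LPS it was 0.656, 0.718, 0.365 and 0.573 in WT and 0.586, 0.593, 0.694 and 0.845 in KO. Each LPS library was below each PBS library of its genotype. This ratio was chosen after its values were seen and was not tested.

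Isoenzyme shares were set side by side in the same way, as the percent of a family's summed TPM that 1 gene took, with 36 exact two-sided permutation tests over 9 families and 4 comparisons. No adjusted p was under 0.05. In 5 tests the exact p was 0.0286, the smallest such permutation p with 3 against 4 libraries, and the smallest adjusted p was 0.206. KO against WT under PBS, with 3 against 3 libraries, cannot go below 0.1. The share of Ldhb in Ldha plus Ldhb was 80.9%, 80.9% and 77.3% in WT PBS and 65.8%, 65.6%, 47% and 60.2% in WT LPS, a difference of means of -20.1 points. In KO it was 80.2%, 80.6% and 75.9% under PBS and 51.7%, 51.1%, 55% and 63.4% under LPS, a difference of -23.6 points. LPS and PBS libraries did not overlap in either genotype, while WT and KO under LPS did.

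The share of Pfkfb3 in Pfkfb3 plus Pfkfb4 was 63.6%, 67.3% and 59.5% in WT PBS and 80.4%, 83.6%, 83.3% and 83.1% in WT LPS. In KO it was 57.3%, 55.5% and 59.2% under PBS and 80.3%, 85.4%, 75.7% and 74.3% under LPS. The KO PBS libraries all lay below the WT PBS libraries (exact permutation p = 0.1). Mpc1 took 79%, 76.1% and 77.3% of Mpc1 plus Mpc2 in WT PBS and 84.6%, 82.1% and 85.2% in KO PBS, without overlap (exact permutation p = 0.1), against 72.8% to 77.2% in all 8 LPS libraries. Pdk1 took 40.9%, 37.8% and 36.8% of the 4 kinase genes in WT PBS and 50.3%, 46.7% and 51.1% in KO PBS, again without overlap (exact permutation p = 0.1), and 39.8% to 55.6% in the LPS libraries. In the remaining families 1 gene each was tested (Slc2a1, Hk2, Pfkp, Aldoc and Slc16a3), and its share overlapped in each of the 4 comparisons. The shares of the other hexokinase and phosphofructokinase genes were not tested. Those given next were picked for their lack of overlap, and others overlapped. Hk3 in WT did so between PBS (28.8% to 35.7%) and LPS (32.1% to 37.6%), and Pfkl in KO between PBS (51.5% to 57%) and LPS (54.7% to 61.3%). Pfkm took 34% to 43.1% of its family in WT PBS and 10.9% to 30.4% in WT LPS, and 32.8% to 33.9% and 22.9% to 31.6% in KO, without overlap. Pfkl took 40.7% to 52.8% in WT PBS and 56.7% to 74.9% in WT LPS. Hk1 took 9.02% to 11.6% in WT PBS and 7.65% to 8.82% in KO PBS, and Hk3 took 30.8% to 35.1% in KO PBS and 36.2% to 39.3% in KO LPS, both without overlap.

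**Figure D5:**
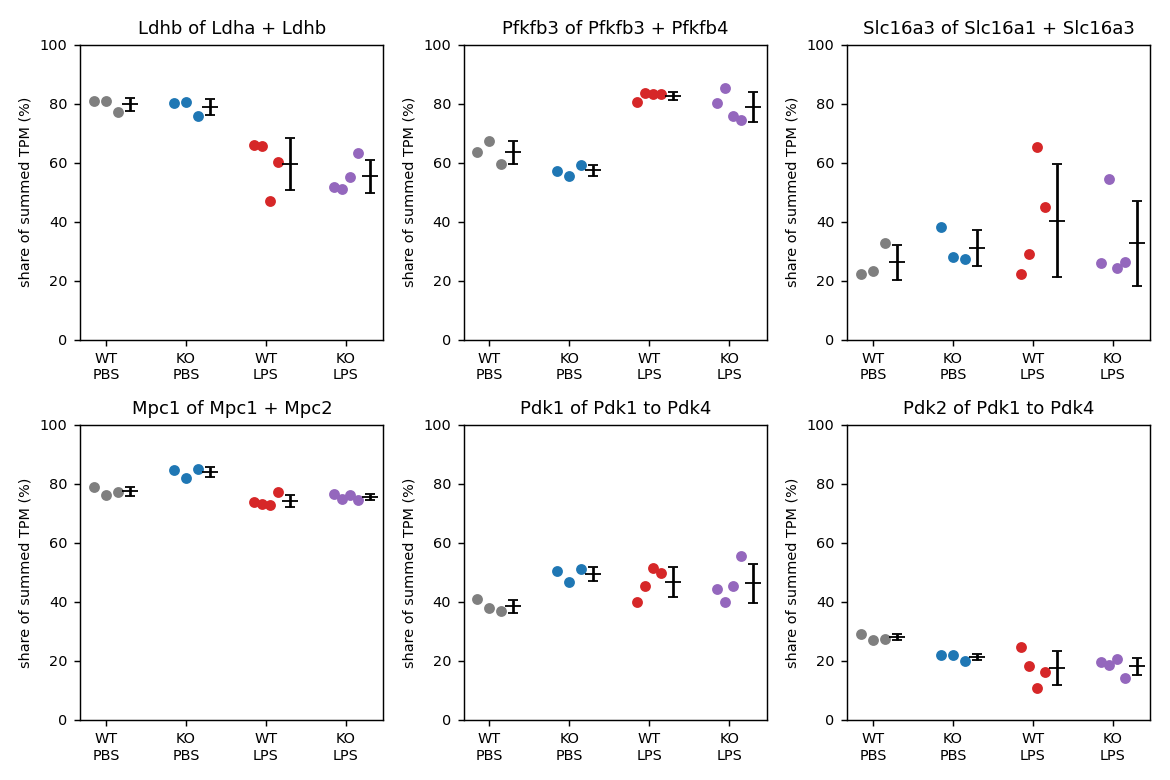
Percent of a gene family's summed TPM taken by 1 gene in each library (points) by group on the horizontal axis, with the group mean and SD beside the points. The Ldhb share is 75.9% to 80.9% in PBS and 47% to 65.8% in LPS libraries, the Pfkfb3 share goes the other way, and Mpc1 and Pdk1 take larger shares in KO than in WT under PBS.

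WT_LPS_3 stood apart from the other LPS libraries in these genes. It was the highest of all 14 libraries for 16 of the 57 gene IDs, against 6.98% of all genes tested, and among them were 6 of the 8 lower glycolysis IDs. Its summed lower glycolysis level was 2335 TPM, against 1068 to 1564 TPM in the other 7 LPS libraries. Gapdh, glyceraldehyde-3-phosphate dehydrogenase, which is not among the 57 and was named after its values were seen, stood there at 824 TPM against 401 to 583 TPM. The same library held the highest Acod1, the enzyme that diverts aconitate to itaconate, at 750.5 TPM against 87.4 to 237 TPM in the other LPS libraries, and the highest Egln3, a HIF target also named after its values were seen, at 22.5 TPM against 3.12 to 8.49 TPM. Its pyruvate entry sum was 366 TPM, within the 339 to 414 TPM of the others. Even so, it was the lowest of all 14 libraries for 5 of the 14 pyruvate entry genes, and WT_LPS_4 for 6. The neutrophil and monocyte marker sum of WT_LPS_3 was 20339 TPM, beside 20588 TPM in KO_LPS_1 and 20049 TPM in KO_LPS_2, most of it S100a8 and S100a9. Of the 8 markers, 4 were highest of the LPS libraries in WT_LPS_3: S100a8, Cxcr2 (159.9 TPM, against 61.1 to 124 TPM in the others), Ly6c2 (212 TPM, against 68.1 to 111 TPM) and Ccr2 (78.9 TPM, against 28.7 to 55.9 TPM). Their part in the lower glycolysis level was not tested. Leaving WT_LPS_3 out, LPS against PBS in WT called 5 members higher and 24 lower, with all 28 calls kept.

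Other genes of the same pathways, from a list that holds no member, moved with LPS too. Of 40 such genes 38 were tested, and 3 were called higher and 18 lower in WT and 6 and 10 in KO (7.95% and 34.1%, and 7.82% and 26.9%, of all genes). Under median-of-ratios scaling the split was 8 higher and 6 lower in WT and 9 and 4 in KO. The glucose transporters parted most. Slc2a6, a lysosomal hexose transporter of macrophages, rose from 4.44 to 42.2 TPM in WT (means, a difference of 2.82 on the log2 scale with an adjusted p of 0.000107). In KO its mean went from 4.12 to 34.9 TPM (2.81, adjusted p = 8.64e-05). Slc2a5, the fructose transporter GLUT5 that marks resting microglia, fell in WT from a mean of 430.2 TPM to 142 TPM (-1.59, adjusted p = 3.41e-05), and in KO from 506 TPM to 124 TPM (-2.03, 4.76e-06). Pck2, the mitochondrial phosphoenolpyruvate carboxykinase, fell with LPS in both genotypes, by 0.87 and 0.69, and was the gene of this list called in the average genotype effect (-0.54, SE 0.11, adjusted p = 0.0174). Its levels were 33.2, 36.9 and 31.9 TPM in WT PBS and 23.6, 21.8 and 19.6 TPM in KO PBS, and under LPS 15.5 to 20.5 TPM (WT) against 9.76 to 16.1 TPM (KO), where 2 KO libraries were above the lowest WT library.

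A list of 20 genes around HIF was read in the same way. In each genotype 2 were called higher and 7 lower with LPS, where 7.95% and 34.1% of all genes were called in WT and 7.82% and 26.9% in KO, and under median-of-ratios scaling 4 and 2 in WT and 3 and 3 in KO. The higher ones were the targets Ankrd37 (1.23 in WT, adjusted p = 0.000727, and 1.33 in KO, 0.000395) and Adm, which encodes the peptide adrenomedullin (2.13 in WT, 0.000353, and 1.93 in KO, 0.000589). Other known targets went lower in the TPM as deposited: Ddit4, which encodes an inhibitor of mTORC1, had -1.69 in WT and -1.88 in KO, and P4ha1, a collagen prolyl hydroxylase, had -0.44 and -0.84. Among genes that limit HIF, the prolyl hydroxylase Egln1 had -0.39 and -0.36, the asparaginyl hydroxylase Hif1an -0.41 and -0.59 and the ubiquitin ligase subunit Vhl -0.56 and -0.57, all called, beside all-gene medians of -0.28 and -0.22. Bnip3, a HIF target that promotes mitophagy, was the gene of this list called in the average genotype effect, lower in KO (-0.57, SE 0.13, adjusted p = 0.0259). It stood at 43.8, 45.2 and 42.9 TPM in WT PBS and 23.1, 23.4 and 31.5 TPM in KO PBS, and under LPS at 40.2, 44.2, 50.2 and 29.7 TPM in WT and 32.5, 26.6, 39.5 and 25.7 TPM in KO.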

How the data were processed

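RNA-seq of 14 libraries was analysed. The authors deposited TPM per gene, a unit that carries no library total. The submitters' processing notes list cutadapt 4.4, FastQC 0.11.9, featureCounts 2.0.1 and STAR 2.7.10b, and the build hg38. Since that build is human and the gene IDs are of mouse, no coordinates are given for the measured genes. How strand was handled is not given in the sources used here. Symbols came from the reference table for 41588 of 41739 IDs. The log2 of TPM plus a pseudocount of 1 was modelled by group (4 means, intensity trend) in limma 3.58.1 (R 4.3.3), over 18724 genes with at least 1 TPM in at least 3 libraries. Adjusted p-values are limma's, by Benjamini-Hochberg over all genes, and a gene was called under 0.05. On this scale fold changes of low genes are understated. Reads were recovered from TPM and GENCODE M21 exon lengths (98.4% to 98.6% of values whole within 0.02 reads), for depth and for voom. Values by library are given for genes called in any comparison and for a set list of others, and the text says where a gene was added after its values were seen. The members and lists were chosen with earlier results of these data known. Nothing in the labels states that the libraries of a group are from different animals. The p-values therefore reflect library-to-library spread, which may be technical. Promoters are RefSeq's, 250 bases before each start. Alternatives were other pseudocounts, filters and scalings, fits of the compared groups alone, a replicate block, and leaving libraries out. A result for 1 gene outside the members is not reported here.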

Additional observations from a re-analysis of the deposited data

Results flagged for a closer look

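In each LPS group of 4 libraries, a gene ID was singled out when its highest or lowest library lay farther from the next, relative to the range of the group, than the 95% limit of Dixon's test. Of 114 such groups 10 were singled out, where the limit would give about 1 in 20 if the groups were independent. Genes of the same library are not independent, and the share among all genes was not computed. The count is therefore no result about the members as a set. In 8 of them WT_LPS_3 was the high library. Of these, 5 are genes of lower glycolysis: Aldoa at 597 TPM against 316 to 361 TPM in the other WT LPS libraries, Tpi1 at 299.5 TPM against 146 to 168 TPM, Pgk1 at 384 TPM against 178 to 181 TPM, Eno1 at 317 TPM against 182 to 192 TPM, and Pkm at 547 TPM against 299 to 340.3 TPM. The others were Pfkl, a phosphofructokinase subunit, at 84.3 TPM against 48.2 to 54.3 TPM, Ldha at 387 TPM against 234 to 249.8 TPM, and Pgd of the pentose phosphate pathway at 172 TPM against 122 to 126 TPM. In KO_LPS_4, Tpi1 was low at 109 TPM against 161 to 163 TPM, and Pdhx was high at 19.7 TPM against 16.5 to 16.9 TPM. KO_LPS_4 is the library with the fewest recovered reads, 8 M.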

How the results depend on the processing

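Depth limited low genes: Aldoa_2 rested on 2 to 24 recovered reads per library and Pdk4 on 21 to 280. For KO against WT under PBS, the 1 called member became 0 with no filter, 0 in a fit of the compared groups alone, 0 without WT_PBS_914 and KO_LPS_3, 2 with a filter at a TPM of 5, and 0 to 0 with single libraries left out, against 191 genes called among all in the reported fit, 79, 109 and 18 under the first 3 of these and 8 to 49 with single libraries left out. Under LPS, the 0 called members became 1 with the filter at 5 TPM, 1 under median-of-ratios scaling, 1 after rescaling without dominant genes, 2 in voom (added after seeing the data) and 0 to 1 with single libraries left out, while the 93 genes called among all became 141, 173, 170, 315 and 18 to 100 in that order, 32 with no filter, 8 without WT_PBS_914 and KO_LPS_3 and 0 in a fit of the compared groups alone. The average effect called 3 members under median-of-ratios scaling, 2 without WT_PBS_914 and KO_LPS_3 and 2 to 5 with single libraries left out, against 5, and 738 genes among all became 377 without that pair and 370 to 833 with single libraries left out. LPS against PBS kept its totals of called members within 1.5 times but not their split by direction, which in WT went from 5 higher and 23 lower to 18 and 8 under median-of-ratios scaling, while all genes called in KO went from 6494 to 4251 under median-of-ratios scaling. Under that scaling Ogdh (0.06, adjusted p = 0.591) and Mdh2 (0.05, adjusted p = 0.7) turned positive in WT. The cause was not tested, beyond the shift of the median of all genes given above. In the replicate block of the LPS libraries 0 members and 0 genes were called. Same-numbered libraries correlated at 0.06, -0.06, -0.09 and -0.03 in their deviations from group means. These values show no pairing by number but, with 4 libraries per group, cannot exclude it. Pseudocounts of 0.1 and 5 left each member count unchanged. No isoenzyme share passed under any setting tried, and these tests could hardly pass, so this says little of the shares. With all libraries the exact permutation p cannot go below 0.0286, or 0.1 for KO against WT under PBS, before adjustment over 36 tests.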
